A study of Homo sapiens with 6 samples.

Results

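The genes described here are 33 human genes of DNA repair and of the DNA damage checkpoint, chosen by name from the 67026 genes of the count table and each found there in 1 row. They cover homologous recombination with the sensing of breaks (17 genes), the Fanconi anaemia pathway (10 genes), mismatch repair (2 genes) and the checkpoint kinases (4 genes). Their messenger RNA was measured in tumours of PC-3, an established human prostate cancer line, that carried a lentiviral hairpin RNA against VCAN (shVCAN, 3 numbered xenografts) or against GFP (shGFP, the knockdown control, 3 numbered xenografts). VCAN encodes versican, a large proteoglycan of the extracellular matrix. All cells had been selected with puromycin at 2 µg/mL, and 1200000 of them were injected with Matrigel under the skin of male NSG mice (NOD.Cg-Prkdcscid Il2rgtm1Wjl/SzJ) aged 4 to 5 weeks. NSG mice lack T, B and natural killer cells and keep other host cells, among them phagocytes, fibroblasts and vessels. They also carry the scid allele of the mouse gene Prkdc, itself a gene of DNA end joining. The labels give 1 hairpin name per group, no hairpin sequence and nothing on clones, and do not say whether the xenografts of a group came from separate mice. The p-values therefore measure the spread between these xenografts, which are called tumours here. The comparison asks which of the repair genes differ when versican is knocked down.

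Homologous recombination repairs a double-strand break by copying an intact sister. The MRE11, RAD50 and NBN proteins bind the broken ends, nucleases such as EXO1 trim them to single strands, and BRCA1, PALB2 and BRCA2 act on these strands, helped by XRCC2, XRCC3 and their partners and by the RAD54 translocases. The Fanconi pathway removes crosslinks between the DNA strands, with a nuclear core complex that attaches ubiquitin to FANCD2 and FANCI. ATM and ATR are the kinases that report breaks and stalled replication to CHEK2 and CHEK1, and mismatch repair corrects copying errors left by the polymerases. Many of these genes are known to be transcribed most in cells that replicate their DNA.

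The libraries held 12959840 to 13327617 counts in shVCAN tumours and 11253058 to 12936539 counts in shGFP tumours. VCAN, the target of the hairpin, had 69, 39 and 44 counts in the shVCAN tumours and 133, 104 and 121 in the shGFP tumours, or −1.53 on the log2 scale (SE 0.207; adjusted p = 4.59e-07 by edgeR's quasi-likelihood test). The groups did not overlap, and permuting the 6 levels (exact, two-sided) gave p = 0.1, the smallest that 3 against 3 allows. Messenger RNAs of the mitochondrial genome took 6.39% to 7.63% of the counts of shVCAN tumours and 13.3% to 16.2% of those of shGFP tumours. Of the markers listed for other cell types, 4 of 5 leukocyte genes (PTPRC, CD68, CD3E and MS4A1) had at most 3 counts in any library, and the summed level of all 5 was 0.657 to 1.09 CPM in shVCAN and 1.83 to 2.97 CPM in shGFP tumours. The 4 endothelial genes summed to 46.9 to 50.6 CPM in shVCAN and 83.4 to 86.2 CPM in shGFP tumours, with VWF at 0 to 8 counts. The 6 fibroblast genes summed to 305.3 to 408.2 CPM in shVCAN and 736.1 to 837.1 CPM in shGFP tumours, most of it COL1A1, while DCN had 0 counts in 5 of the 6 libraries. The part of these differences in the results below was not tested. Of 6 epithelial and PC-3 markers, 4 were lower in shVCAN tumours. CDH1 had 41, 47 and 62 counts in shVCAN and 225, 152 and 183 in shGFP tumours (log2 fold change −2.20), and KRT18 (−0.54), EPCAM (−0.29) and KRT8 (−0.19) were also called lower, while KRT19 (−0.06) and VIM (−0.04) were not called. With library size alone 2 of the 6 were called lower and 1 higher. The 6 summed to 2935 to 3013 CPM in shVCAN and 3135 to 3366 CPM in shGFP tumours, and the prostate marker KLK3 had 0 counts. Their part in the results was not tested either. In whole tumours, fewer cells of a type and less RNA per cell cannot be told apart. How reads from the mouse host were treated is not given. Whether the leukocyte, endothelial and fibroblast marker counts come from PC-3 cells or from mouse reads therefore cannot be told.

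All 33 genes passed the filter on low counts, 3 rose in shVCAN tumours (RAD54B, MSH6 and FANCL), 2 fell (ATM and FANCE) and 28 were not called at an adjusted p under 0.05. Among all 16254 genes tested, 19.2% were called higher and 21.1% lower, 40.3% in either direction, against 15.2% of the 33. The median log2 fold change of the 33 genes was 0.032 (range −0.39 to 0.98), and that of all tested genes was 0.0014. RAD54B was the 1 gene of the 33 whose fold change exceeded 0.5 on the log2 scale in size. For 24 of the 28 genes not called, the 95% interval of the log2 fold change lay between −0.5 and 0.5. The other 4 were RAD50 (−0.78 to 1.37), BRCA2 (−0.11 to 0.57), FANCB (−0.08 to 0.64) and ATR (0.03 to 0.54). The shVCAN and shGFP tumours did not overlap in 7 genes, 5 of them higher in shVCAN and 2 lower, where 23.9% and 24.8% of all tested genes did not overlap. The counts depend on the scaling. With library size alone, which set the median of all tested genes at 0.168, 13 of the 33 were called higher and none lower by edgeR (none at an unadjusted p under 0.05 either), beside 32.2% and 11.6% of all tested genes. These 13 were RAD54B, MSH6 and FANCL with NBN, PARP1, RAD51C, XRCC2, FANCB, FANCC, FANCF, FANCG, ATR and CHEK2. Upper quartile factors gave 6 higher and 2 lower (21.8% and 18.4% of all tested genes), and an offset that levels out exonic length and GC content gave 7 and 2 (19.5% and 19.3%).

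**Figure D1:**
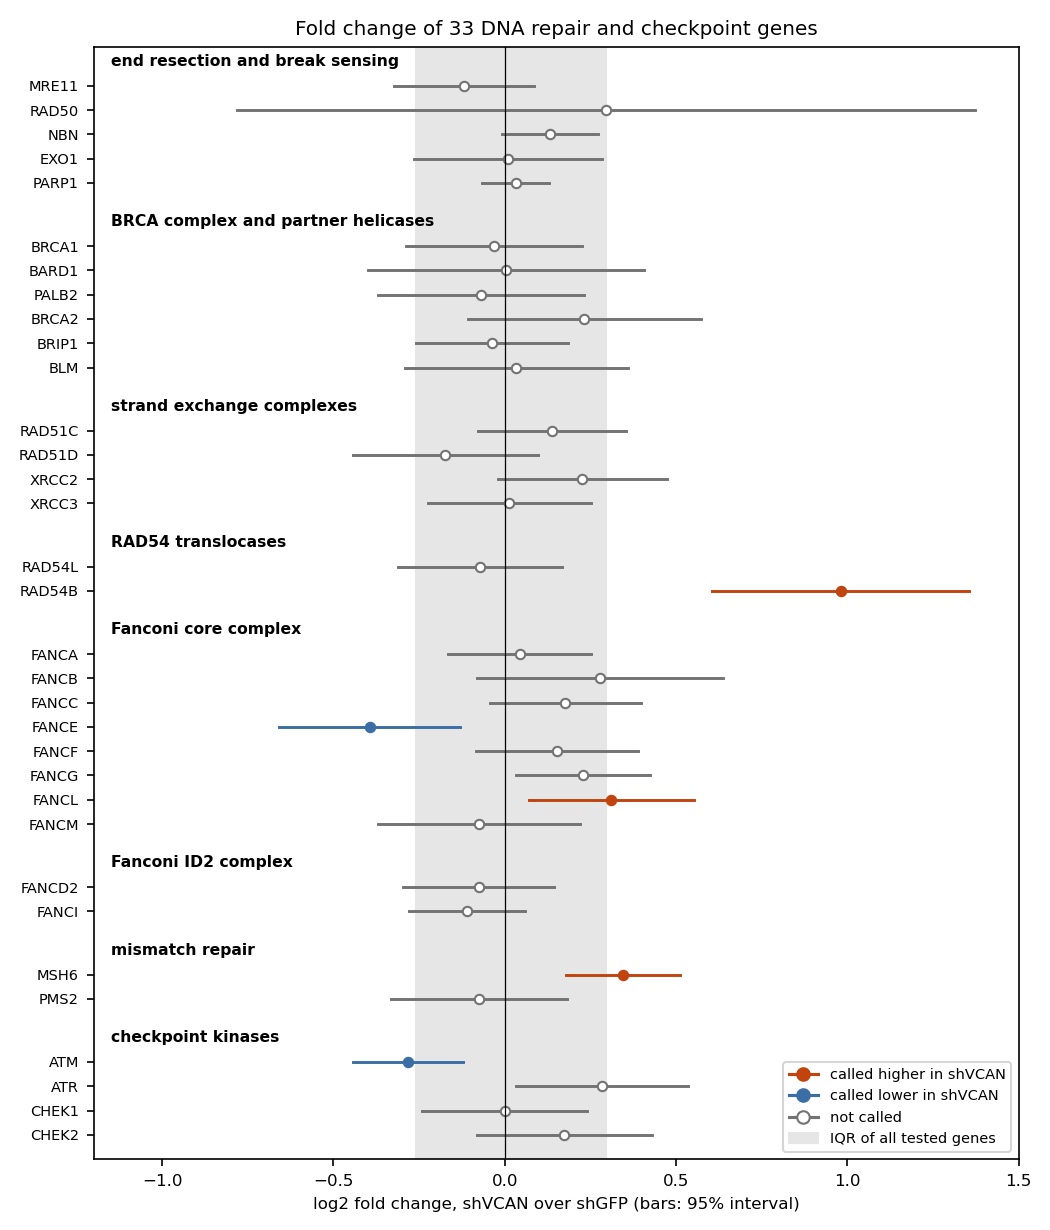
Log2 fold change (x axis, shVCAN over shGFP, n = 3 tumours each) of the 33 genes, grouped by role. Points are estimates of the edgeR fit, bars 95% intervals, filled points called genes, and the grey band is the interquartile range of all tested genes, −0.26 to 0.29. RAD54B lies apart from the others at 0.98, and the intervals of most genes cross 0.

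The promoters of the called genes are shown because these are the members that moved. The sequences are the 250 bases before the start of transcription in the RefSeq table of GRCh38.p14, 5′ to 3′ along the gene's strand, taking the first start listed. RAD54B is named only. MSH6 lies at chr2:47782895-47783144 on the plus strand, FANCL at chr2:58241326-58241575 on the minus strand, ATM at chr11:108222817-108223066 on the plus strand and FANCE at chr6:35452088-35452337 on the plus strand. Capitals mark matches to CCAAT, which reads as ATTGG on the other strand, or to TTTGAA, the cell cycle homology element, which reads as TTCAAA there.
MSH6: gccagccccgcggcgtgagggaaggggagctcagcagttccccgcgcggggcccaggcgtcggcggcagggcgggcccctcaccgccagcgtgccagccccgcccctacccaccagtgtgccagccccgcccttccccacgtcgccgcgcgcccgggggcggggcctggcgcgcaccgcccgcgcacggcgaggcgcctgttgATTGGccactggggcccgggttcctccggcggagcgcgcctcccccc
FANCL: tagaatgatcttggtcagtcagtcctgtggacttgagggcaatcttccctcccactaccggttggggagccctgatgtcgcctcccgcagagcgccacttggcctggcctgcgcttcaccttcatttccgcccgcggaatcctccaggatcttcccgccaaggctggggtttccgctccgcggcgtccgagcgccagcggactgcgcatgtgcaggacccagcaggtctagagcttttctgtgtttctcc
ATM: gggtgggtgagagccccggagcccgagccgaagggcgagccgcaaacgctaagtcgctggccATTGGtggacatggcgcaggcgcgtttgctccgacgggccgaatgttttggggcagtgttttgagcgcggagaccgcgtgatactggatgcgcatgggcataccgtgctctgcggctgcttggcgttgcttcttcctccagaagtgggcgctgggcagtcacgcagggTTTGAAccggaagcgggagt
FANCE: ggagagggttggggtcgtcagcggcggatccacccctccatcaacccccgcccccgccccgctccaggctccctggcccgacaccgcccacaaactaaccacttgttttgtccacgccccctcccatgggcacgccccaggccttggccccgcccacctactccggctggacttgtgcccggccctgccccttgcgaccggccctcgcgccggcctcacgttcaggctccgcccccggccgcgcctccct
The MSH6 window holds 1 CCAAT match and the ATM window 1 CCAAT and 1 TTTGAA match, while the FANCL and FANCE windows hold none of these letters. An E2F-type motif (TTTGGCGC, TTTCCCGC, TTTCGCGC, TTTGCCGC or TTTGGCGG, either strand) was also searched, in windows that run on to 50 bases after the start. Of 30 members with a window, 7 had it (EXO1, FANCA, FANCC, FANCD2, MSH6, PMS2 and XRCC2), or 23.3%, against 3.95% of 27305 promoters of the same length. The MSH6 match lies in the bases after the start, which are not printed. MSH6 is the 1 called gene of these 7. RAD54B, NBN and FANCI had no window here and were not searched. CCAAT was found in 14 of the 30 (46.7%, against 35.7% of all) and TTTGAA in 3 (10.0%, against 15.4% of all). These motifs can overlap, and a match describes letters and not a bound site.

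The 5 genes that sense and trim broken ends were not called, and none reached an unadjusted p under 0.05 by edgeR. PARP1, which marks breaks with poly(ADP-ribose), was the most abundant member per exonic length, at 41.6 RPKM (CPM per kilobase of exons) in shVCAN and 40.7 RPKM in shGFP tumours. Its level was 290.1, 303.4 and 301.2 CPM in the shVCAN tumours, against 291.1, 288.9 and 295.2 CPM in the shGFP tumours. The groups overlapped, and its interval of −0.07 to 0.13 on the log2 scale was the narrowest of the 33. The value depends on the scaling, and PARP1 was called higher with the length and GC offset (log2 fold change 0.17) and with library size alone (0.20). NBN, the regulatory subunit of the break-binding complex, had 112.1, 93.5 and 107.3 CPM in shVCAN, against 99.2, 89.6 and 96.8 CPM in shGFP tumours (log2 fold change 0.13, SE 0.0686, edgeR adjusted p = 0.131). NBN was called higher without shVCAN tumour 2 (0.20 on the log2 scale), with upper quartile factors (0.17) and with library size alone (0.30). The nuclease subunit MRE11 averaged 28.2 ± 2.03 CPM in shVCAN and 30.6 ± 2.84 CPM in shGFP tumours (SD, n = 3 each). The exonuclease EXO1, which also acts in mismatch repair, averaged 13.0 ± 0.737 and 12.9 ± 0.511 CPM in shVCAN and shGFP tumours. RAD50, the ATPase that tethers the ends, had only 8, 16 and 11 counts in the shVCAN and 9, 10 and 4 in the shGFP tumours. In GENCODE 29, 79.7% of the exonic bases of RAD50 also belong to other genes, mostly to AC116366.3 on the same strand, and that gene had 0 counts in every library. The part of this sharing in the low count was not tested, so the level of RAD50 is uncertain.

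The BRCA group overlapped between the groups of tumours, with differences within the spread between tumours. BRCA1 had 16.0, 14.9 and 14.7 CPM in shVCAN, against 14.4, 16.2 and 16.2 CPM in shGFP tumours, so that the groups overlapped (log2 fold change −0.03, interval −0.29 to 0.22). Its partner BARD1, with which it forms a ubiquitin ligase, averaged 7.23 ± 1.26 CPM in shVCAN and 7.18 ± 1.72 CPM in shGFP tumours. PALB2, the link between BRCA1 and BRCA2, averaged 11.1 ± 0.971 and 11.6 ± 1.08 CPM in shVCAN and shGFP tumours. BRCA2, which acts on the trimmed single strands, had 11.3, 8.96 and 11.6 CPM in shVCAN, against 7.24, 9.76 and 10.1 CPM in shGFP tumours. Its groups overlapped and its fold change of 0.23 was not called (SE 0.167, edgeR adjusted p = 0.283). The helicase BRIP1 averaged 23.7 ± 2.20 CPM in shVCAN and 24.4 ± 1.96 CPM in shGFP tumours, and the helicase BLM 9.19 ± 0.385 and 8.97 ± 0.701 CPM. Per exonic length BRCA2 was among the lowest, at 0.864 RPKM in shVCAN and 0.737 RPKM in shGFP tumours, below BRCA1 at 1.66 and 1.70 RPKM.

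XRCC2, XRCC3, RAD51C and RAD51D, whose proteins work in shared complexes during strand exchange, were not called either. XRCC2 had 20.9, 20.6 and 21.2 CPM in the shVCAN tumours, against 17.1, 21.1 and 15.5 CPM in the shGFP tumours. The shGFP tumour 2 lay among the shVCAN tumours, and without it the log2 fold change of 0.23 became 0.37 and was called (edgeR adjusted p = 0.0278, over a range of alternatives from 0.00935 to 0.438). RAD51C averaged 26.1 ± 2.01 CPM in shVCAN and 23.8 ± 1.80 CPM in shGFP tumours, and RAD51D 15.2 ± 2.19 and 17.1 ± 1.75 CPM. XRCC3 averaged 20.9 ± 1.95 CPM in shVCAN and 20.7 ± 2.10 CPM in shGFP tumours. That value is uncertain because 76.7% of the exonic bases of XRCC3 lie opposite KLC1, which had 519 to 739 counts per library, and whether reads were counted by strand is not given in the sources used.

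RAD54B had the largest fold change of the 33 genes. RAD54 proteins move along DNA and help strand exchange. RAD54B had 8.86, 10.0 and 10.2 CPM in the shVCAN tumours, against 5.66, 4.37 and 4.66 CPM in the shGFP tumours. Every shVCAN tumour was above every shGFP tumour, at 1.97 times the level (log2 fold change 0.98, SE 0.183, edgeR adjusted p = 6.68e-05). The counts behind it were 122, 142 and 140 in shVCAN and 68, 47 and 51 in shGFP tumours. The gene shares 59.1% of its exonic bases with FSBP on the same strand, which had 67, 31 and 47 counts in shVCAN and 49, 28 and 27 in shGFP tumours. How reads of the shared part were counted is not given, so the level of RAD54B is uncertain. Its relative RAD54L, with 24.4, 20.3 and 20.4 CPM in shVCAN and 19.7, 25.7 and 23.2 CPM in shGFP tumours, overlapped between the groups (log2 fold change −0.07, interval −0.31 to 0.17). The intervals of RAD54B and RAD54L do not overlap, although the difference between the genes was not tested. The RAD54L value is also uncertain, because 25.1% of its exonic bases lie opposite LRRC41, which had 851 to 984 counts per library. Whether reads were counted by strand is not given.

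**Figure D2:**
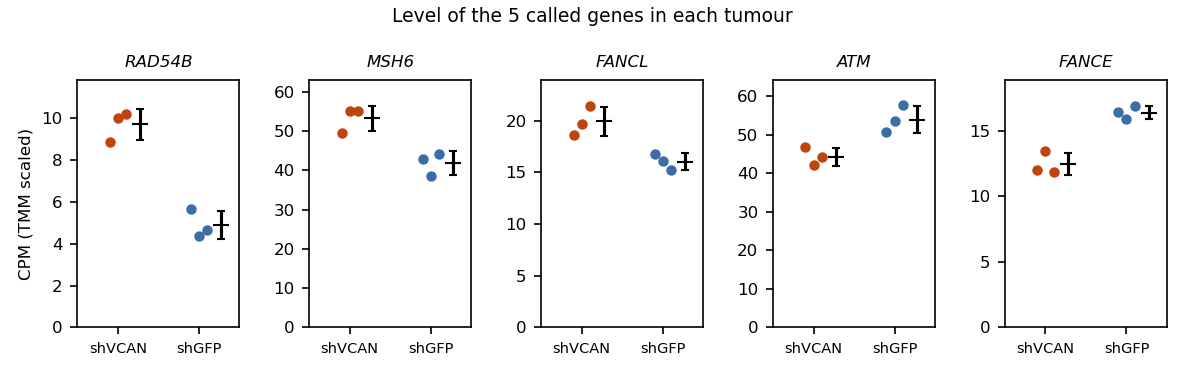
Level (y axis, CPM scaled by TMM factors, from 0) of the 5 called genes in each of 3 shVCAN and 3 shGFP tumours. Points are tumours and the bars beside them mean ± SD; RAD54B, MSH6 and FANCL lie higher in every shVCAN tumour, ATM and FANCE lower.

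Among the 8 subunits of the Fanconi core complex there was 1 rise and 1 fall, with 6 genes not called. FANCL, the ubiquitin ligase subunit, had 18.7, 19.7 and 21.5 CPM in shVCAN, against 16.8, 16.1 and 15.3 CPM in shGFP tumours. Its groups did not overlap and it rose 1.24-fold (log2 fold change 0.31, SE 0.118, edgeR adjusted p = 0.035). Of its exonic bases 19.7% lie opposite other genes, among them VRK2 with 121 to 188 counts per library, and the strand setting is not given. FANCL has the shortest exonic length of the 33 genes (2412 bases), and with the offset for length and GC content its log2 fold change was 0.028 (adjusted p = 0.879). The call was also lost without shVCAN tumour 3 (log2 fold change 0.25, adjusted p = 0.146) or shGFP tumour 3 (0.28, adjusted p = 0.0992). Without shGFP tumour 2 (0.32, adjusted p = 0.0625) and by DESeq2 (0.31, adjusted p = 0.0573) it was lost with a fold change slightly above the reported one. The adjusted p ranged from 0.00127 to 0.891 over the alternatives. FANCE, the subunit that binds FANCD2, had 12.0, 13.5 and 11.9 CPM in shVCAN, against 16.4, 15.9 and 16.9 CPM in shGFP tumours. Every shVCAN tumour was below every shGFP tumour, at 0.761 times the level (log2 fold change −0.39, SE 0.129, edgeR adjusted p = 0.015). The call was lost without shVCAN tumour 1 (−0.37) or 3 (−0.36), with an adjusted p of 0.0547 each, and with library size alone (−0.23, adjusted p = 0.162), over a range from 0.00512 to 0.162.

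The other core subunits were not called. FANCG, a scaffold of the core complex, had 34.2, 35.5 and 31.5 CPM in shVCAN, against 26.3, 29.7 and 30.4 CPM in shGFP tumours. Its groups did not overlap, and it was just outside the threshold (log2 fold change 0.23, SE 0.0956, edgeR adjusted p = 0.0571), passing it with the length and GC offset (0.0137), with upper quartile factors (0.026), with library size alone (0.00136) and without shVCAN tumour 3 (0.0434), over a range from 0.00136 to 0.229. FANCA averaged 36.7 ± 6.06 CPM in shVCAN and 35.6 ± 2.46 CPM in shGFP tumours, and FANCC 25.8 ± 2.57 and 22.8 ± 1.74 CPM. Both were called higher with the length and GC offset, at log2 fold changes of 0.26 and 0.40 in place of 0.04 and 0.18. ZNF276, with 631 to 893 counts per library, lies opposite 23.6% of the exonic bases of FANCA, so the FANCA value is uncertain. FANCB averaged 8.65 ± 0.943 CPM in shVCAN and 7.14 ± 0.888 CPM in shGFP tumours, and FANCF 20.8 ± 1.25 and 18.7 ± 1.74 CPM. FANCM, the translocase that anchors the complex to DNA, averaged 13.1 ± 2.02 CPM in shVCAN and 13.8 ± 1.66 CPM in shGFP tumours. The targets of the ligase overlapped between the groups. FANCD2 had 20.3, 21.1 and 20.7 CPM in shVCAN, against 20.9, 21.6 and 22.9 CPM in shGFP tumours (log2 fold change −0.08, interval −0.30 to 0.14). FANCI averaged 39.5 ± 2.03 CPM in shVCAN and 42.6 ± 2.10 CPM in shGFP tumours (log2 fold change −0.11, interval −0.28 to 0.06).

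Of the mismatch repair pair, MSH6 rose and PMS2 was not called. MSH6 is the subunit that makes the mismatch sensor bind single mispairs, and PMS2 the endonuclease that acts after it. MSH6 had 49.6, 55.1 and 55.1 CPM in the shVCAN tumours, against 43.1, 38.6 and 44.2 CPM in the shGFP tumours. The groups did not overlap, and the rise was 1.27-fold (log2 fold change 0.34, SE 0.081, edgeR adjusted p = 0.000941). MSH6 and RAD54B were the 2 members whose call held in each of the 16 alternatives, MSH6 with adjusted p from 4.32e-06 to 0.00928 and RAD54B from 2.83e-06 to 0.00066. FBXO11, with 915 to 1142 counts per library, lies opposite 16.2% of the exonic bases of MSH6. The strand setting is not given, so the MSH6 value is uncertain. PMS2 had 17.3, 15.0 and 14.8 CPM in shVCAN, against 16.2, 15.3 and 18.0 CPM in shGFP tumours, and the groups overlapped (log2 fold change −0.08, interval −0.33 to 0.18). PMS2 is uncertain because its 15 annotated pseudogenes held 1608 counts in shVCAN and 1249 in shGFP tumours, beside 653 and 557 for PMS2 itself.

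Of the 4 checkpoint kinases 1 fell and 3 were not called. ATM, the kinase of double-strand breaks, had 46.7, 42.0 and 44.2 CPM in shVCAN, against 50.7, 53.4 and 57.5 CPM in shGFP tumours. Every shVCAN tumour was below every shGFP tumour, at 0.822 times the level (log2 fold change −0.28, SE 0.079, edgeR adjusted p = 0.0047). With library size alone the fold change was −0.12 and the call was lost (adjusted p = 0.26, over a range from 0.0047 to 0.26). ATR, the kinase of stalled forks, had 24.1, 23.3 and 25.6 CPM in shVCAN, against 18.8, 16.4 and 24.7 CPM in shGFP tumours. The shGFP tumour 3 lay inside the range of the shVCAN tumours, and the difference was not called (log2 fold change 0.28, SE 0.123, edgeR adjusted p = 0.0641). Without that tumour the log2 fold change was 0.47 and the gene was called (adjusted p = 0.00394, over a range from 0.00281 to 0.305). With all 6 tumours edgeR also called ATR higher with upper quartile factors (adjusted p = 0.0358), library size alone (0.00281) and no filter (0.0487). The same held with the replicate number as a block (0.04), with the length and GC offset (0.0139) and with both together (0.00944). CHEK1, which ATR activates, had 19.5, 21.5 and 17.4 CPM in shVCAN, against 20.6, 17.7 and 20.0 CPM in shGFP tumours, with the groups fully mixed and an interval of −0.24 to 0.24. CHEK2, which ATM activates, had 16.3, 17.6 and 16.7 CPM in shVCAN, against 16.1, 13.2 and 15.5 CPM in shGFP tumours. The CHEK2 groups did not overlap, but the gap between the nearest tumours was small and the gene was not called (log2 fold change 0.17, SE 0.126, edgeR adjusted p = 0.285). The 7 annotated CHEK2 pseudogenes had 0 counts.

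**Figure D3:**
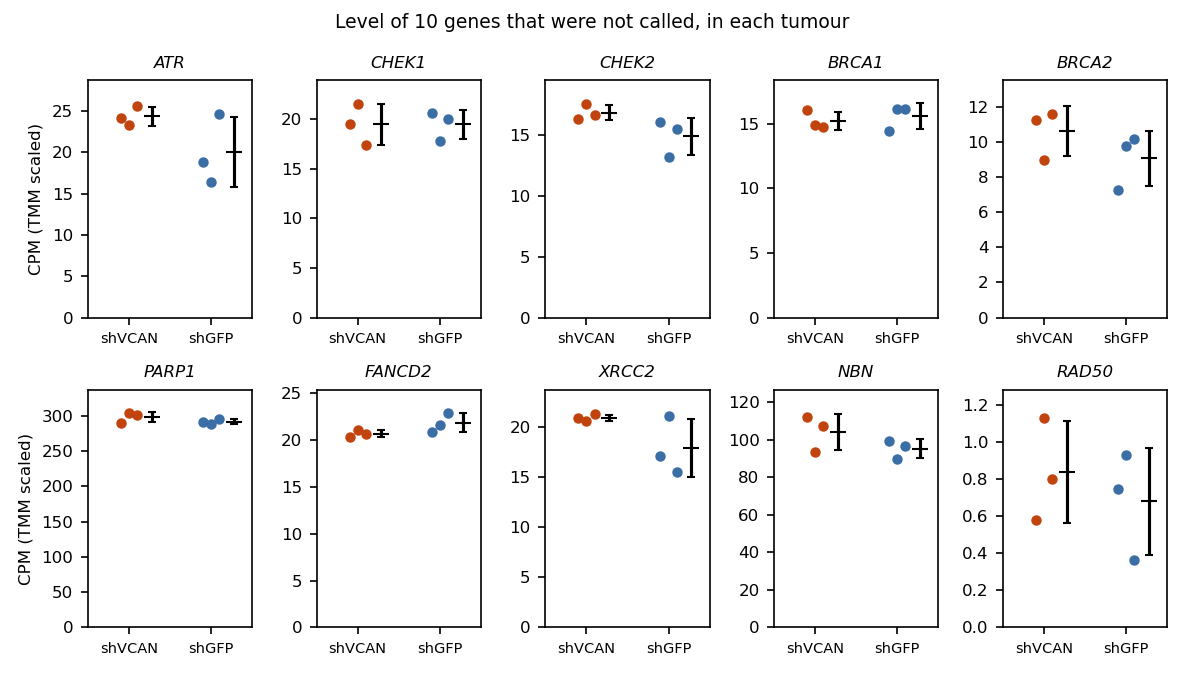
Level (y axis, CPM scaled by TMM factors, from 0) of 10 genes that were not called, in each of 3 shVCAN and 3 shGFP tumours. Points are tumours and the bars beside them mean ± SD; the groups overlap in CHEK1, BRCA1 and PARP1, 1 shGFP tumour of ATR and 1 of XRCC2 lie at the level of the shVCAN tumours, and RAD50 stays near 1 CPM.

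Per exonic length the 33 genes spanned a wide range of levels. In both groups 28 of them lay between 1 and 10 RPKM, with PARP1 and NBN above and RAD50 and BRCA2 below, while RAD54B was at 1.83 RPKM in shVCAN and 0.921 RPKM in shGFP tumours. Across the 33 genes the log2 fold change had a Spearman correlation of −0.057 with exonic length, whereas over 16003 tested genes with a length it was −0.227. These are descriptions across genes of the same 6 libraries. The mean count per library ranged from 9.67 for RAD50 to 3710 for PARP1, with a median of 245.5, and 3 genes averaged under 100.

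Further genes of the same 4 pathways gave 21 rises and 7 falls among 81 tested (25.9% and 8.64%, against 19.2% and 21.1% of all tested genes), with 53 not called and a median log2 fold change of 0.069. With library size alone 36 rose and none fell by edgeR (44.4%, against 32.2% of all tested genes higher and 11.6% lower), and none was lower at an unadjusted p under 0.05. DESeq2 called 19 higher and 6 lower (23.5% and 7.41%, against 17.2% and 19.0% of all tested genes). The length and GC offset gave 17 higher and 5 lower (21% and 6.17%, against 19.5% and 19.3% of all tested genes). With offset and replicate block together 16 rose and 5 fell (19.8% and 6.17%, against 19.1% and 18.8% of all tested genes). The falls numbered 4 without shGFP tumour 1 and 3 without shGFP tumour 2 (4.94% and 3.7%, against 17.5% of all tested genes in each case). Among 32 further genes of homologous recombination, 9 rose and 1 fell (median 0.093). RAD51AP1, which acts in strand exchange, rose to 12.3 CPM in shVCAN, against 7.77 CPM in shGFP tumours. The single-strand binding subunit RPA3 rose to 41.0 CPM, against 30.0 CPM, ZSWIM7, which acts in the same pathway, to 27.5 CPM, against 20.0 CPM, and ABRAXAS1, a scaffold of a BRCA1 complex, to 13.4 CPM, against 8.47 CPM. Among 15 further Fanconi genes 4 rose and 2 fell (median 0.025), and the conjugating enzyme UBE2T, which works with FANCL, rose to 16.5 CPM in shVCAN, against 10.7 CPM in shGFP tumours. CENPX, a partner of FANCM, rose to 128.7 CPM, against 84.8 CPM, and MAD2L2, a subunit of a translesion polymerase, to 66.0 CPM, against 47.6 CPM, while its catalytic subunit REV3L fell to 9.78 CPM in shVCAN, against 13.6 CPM in shGFP tumours. Of 22 tested checkpoint genes 5 rose and 3 fell (median 0.037), with rises in H2AX, the histone that ATM marks at breaks (log2 fold change 0.26), in RHNO1 (0.45) and in RAD1 (0.31), and a fall in the phosphatase CDC25B (−0.21). Of 12 further mismatch repair genes 3 rose and 1 fell (median 0.19), among them the clamp loader subunit RFC4 (0.41) and PMS1 (0.41), while the ligase LIG1 fell (−0.30). The length and GC offset put the median of the further mismatch repair genes at 0.050 and that of the further Fanconi genes at 0.16, and the checkpoint median was −0.011 without shVCAN tumour 2. With the length and GC offset the calls of RAD51AP1 (log2 fold change 0.33), UBE2T (0.31), CDC25B (−0.12) and LIG1 (−0.13) were lost, that of H2AX was lost with offset and replicate block together (0.13), and with library size alone those of CDC25B (−0.05), REV3L (−0.31) and LIG1 (−0.13). Single tumours decided 5 calls. RHNO1 was lost without shGFP tumour 1 (0.32), RAD1 without shVCAN tumour 1 (0.25) or shGFP tumour 2 (0.27), REV3L without shVCAN tumour 2 (−0.39) or shGFP tumour 1 (−0.35), PMS1 without shVCAN tumour 1 (0.30) or shGFP tumour 3 (0.32), and CDC25B without shVCAN tumour 1 (−0.17) or 3 (−0.19) or shGFP tumour 2 (−0.18).

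The other repair routes gave 10 rises and 7 falls among 41 tested genes (24.4% and 17.1%, against the same 19.2% and 21.1%). With library size alone they gave 16 and 3 (39.0% and 7.32%, against 32.2% and 11.6%). Without shVCAN tumour 2 they gave 8 and 12 (19.5% and 29.3%, against 18.5% and 20.6%). Of 9 tested end joining genes 1 rose and 1 fell (median 0.086), and PRKDC, the catalytic subunit of the DNA-dependent protein kinase, fell to 69.8 CPM in shVCAN, against 86.2 CPM in shGFP tumours, while the nuclease DCLRE1C rose to 14.9 CPM, against 11.3 CPM. Of 19 genes of base excision and single-strand break repair 8 rose and 2 fell (median 0.089). The glycosylases NTHL1, UNG and SMUG1 rose, with log2 fold changes of 0.61, 0.40 and 0.45, and the glycosylase TDG fell (−0.40). Of 13 nucleotide excision genes 1 rose and 4 fell (median −0.16), with a rise in CETN2 (0.41) and falls in DDB1 (−0.18) and ERCC6 (−0.30) among those reported. With the length and GC offset DDB1 was at 0.06, CETN2 (0.13) and PRKDC (−0.12) were no longer called, the end joining median was −0.054 and the base excision median 0.028. With library size alone PRKDC (−0.14), DDB1 (−0.02) and ERCC6 (−0.13) were no longer called, and the nucleotide excision median was 0.0093. DCLRE1C was lost without shVCAN tumour 1 (0.40) or 2 (0.31) and without shGFP tumour 3 (0.33). Cell cycle genes are given beside the repair genes, against the same 19.2% of all tested genes called higher and 21.1% called lower. Of 17 G1/S genes 7 rose and none fell by edgeR (median 0.10), with 1 fall at an unadjusted p under 0.05, and DESeq2 called 6 rises and no fall. With the length and GC offset 6 G1/S genes rose, and 5 with offset and replicate block together (19.5% and 19.1% of all tested genes). The G1/S count was 12 rises with library size alone, 4 without shGFP tumour 1 or 3, and 5 rises and 1 fall without shVCAN tumour 1. Of all tested genes, 32.2% were called higher with library size alone, and 16.9% and 16.8% without shGFP tumour 1 and 3. Without shVCAN tumour 1 the shares were 15.5% higher and 17.6% lower. Of 16 tested G2/M genes 12 rose and none fell by edgeR (median 0.37), with no fall at an unadjusted p under 0.05, and DESeq2 called 12 rises and no fall. With the length and GC offset 9 G2/M genes rose, at a median of 0.30 (19.5% of all tested genes). With library size alone and with upper quartile factors 15 rose in each case (32.2% and 21.8% of all tested genes). The G2/M count was 8 rises without shGFP tumour 1 (16.9% of all tested genes). It was 12 rises and 1 fall without shVCAN tumour 2 (18.5% and 20.6% of all tested genes). Summed over the list, G2/M genes reached 1504 to 1561 CPM in shVCAN and 1092 to 1193 CPM in shGFP tumours, and G1/S genes 928.4 to 954.8 and 812.5 to 887.5 CPM. The cyclins CCNE2 and CCNB1 rose, with log2 fold changes of 0.74 and 0.59. CCNE1 of the G1/S list (−0.07) and the proliferation marker MKI67 of the G2/M list (−0.12) were named after their values were seen. Neither was called as reported, with all 6 tumours and TMM scaling. In that fit MKI67 was the 1 tested G2/M gene with a log2 fold change below 0. The part of these cell cycle genes in the levels of the repair genes was not tested.

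**Figure D4:**
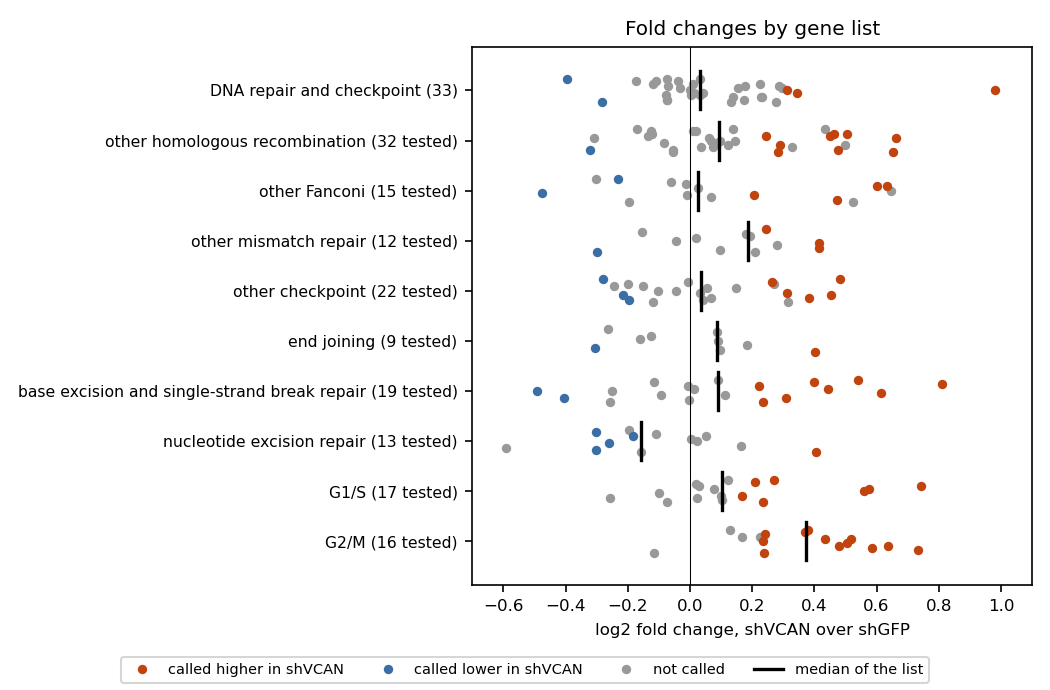
Log2 fold change (x axis, shVCAN over shGFP, n = 3 tumours each) of every tested gene of each list (points) with the median of the list (black line). The 33 repair and checkpoint genes centre at 0.032 and the G2/M genes at 0.37.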

How the data were processed

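Total RNA of 6 xenografts was sequenced from both ends, per the labels' protocols. The submitters' processing notes name hg38, STAR, Trim Galore and DESeq2 with no version or role. The values deposited by the authors are raw read counts for each gene. Not given in the sources used here: the counting program, its annotation and strand setting, and how reads from the mouse host were treated. Rows numbered 67071, and 45 second copies of pseudoautosomal genes (0 counts) were left out. Symbols came from a symbol table (60370 genes) and GENCODE 29 (289 genes), whose exons also gave lengths and shared bases. GC content was that of the longest GENCODE 29 transcript of each gene. The 6367 genes with no symbol held at most 0.166% of a library.

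Groups were taken from the titles and compared by edgeR 4.0.16 with its quasi-likelihood test (R 4.3.3) with TMM scaling, filterByExpr (16254 genes), group as the only term, and Benjamini-Hochberg adjustment over all of them. A gene is called at an adjusted p under 0.05. The SE is the size of the log2 fold change divided by the square root of F, and 95% intervals use 29.8 degrees of freedom. CPM uses TMM library sizes, and RPKM divides it by exonic length. The common biological coefficient of variation was 6.63%. Chi-square per gene between libraries was 3.22 to 5.90 within groups, above counting error, so each counted as 1 replicate. Counts come from amplified libraries, so counting error does not cover all their noise.

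The members, lists and tests were chosen with earlier results of these data known. All 33 members are named, and of each further list the up to 4 called genes with the smallest p; not all of these are reported here. The alternatives tried were scaling by DESeq2 size factors, by upper quartiles or by library size alone, no filter, 1 CPM in 3 samples, DESeq2 1.42.0, an offset fitted to exonic length and GC content (splines on genes of at least 4 CPM), the replicate number as a block, both together, each tumour left out, and an adjusted p under 0.01.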

Additional observations from a re-analysis of the deposited data

How the results depend on the processing

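The fall of VCAN was called in each of the 16 alternatives, with log2 fold changes from −1.83 to −1.36. The count of members called higher, 3 as reported, was 6 with upper quartile factors, 13 with library size alone and 7 with the length and GC offset. It was 7 with that offset and the replicate block together, 2 by DESeq2 and 2 at an adjusted p under 0.01. In this order, 21.8%, 32.2%, 19.5%, 19.1%, 17.2% and 13.8% of all tested genes were called higher, against 19.2% as reported. The count called lower, 2 as reported, was 0 with library size alone and 1 at an adjusted p under 0.01. Of all tested genes, 11.6% and 15.8% were called lower there, against 21.1% as reported. With each tumour left out in turn the counts ranged from 3 to 4 higher and from 1 to 2 lower. The shares of all tested genes then ranged from 15.5% to 18.5% higher and from 17.5% to 20.6% lower. Calls over all genes were 5228 higher and 1890 lower with library size alone, against 3120 and 3425 as reported.

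Same-numbered tumours had correlations of their deviations of 0.0176, 0.0157 and −0.0271, and not every tumour correlated best with its own number. These values show no pairing by number, but with 3 tumours per group they cannot exclude it. The replicate block gave 4 members higher and 2 lower, the added one being ATR, beside 19.0% and 21.1% of all tested genes.

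Of 543 member and VCAN values under the alternatives, 452 kept direction and side of the threshold, 29 newly passed it, 12 no longer did and 50 changed sign, all 50 in genes not called either way. The changed signs were as follows, with the cause not tested. CHEK1 was at 0.0031 with DESeq2 size factors, 0.039 with upper quartile factors, 0.17 with library size alone, 0.017 with no filter, 0.0027 with 1 CPM in 3 samples, 0.0033 by DESeq2, 0.0084 with the offset and 0.0042 with offset and block. BRCA1 was at 0.0073 with upper quartile factors, 0.13 with library size alone, and 0.034 with the offset and with offset and block. BRIP1 was at 0.0021 with upper quartile factors and 0.13 with library size alone. Library size alone also gave MRE11 0.048, PALB2 0.098, RAD54L 0.092, FANCM 0.090, FANCD2 0.090, FANCI 0.057 and PMS2 0.092. The offset gave EXO1 −0.053, BARD1 −0.070, RAD51D 0.0058 and FANCD2 0.020, and offset and block together EXO1 −0.055, BARD1 −0.061, RAD51D 0.0011 and FANCD2 0.020. DDB1, which is no member and was called lower as reported, was at 0.062 with the offset and 0.062 with offset and block (adjusted p = 0.31 and 0.341 by edgeR, over a range of its alternatives from 0.00281 to 0.833). With each tumour left out in turn, values ranged from −0.16 to 0.17 for BARD1, −0.016 to 0.080 for BLM, −0.080 to 0.0068 for BRCA1, −0.096 to 0.036 for BRIP1, −0.079 to 0.074 for CHEK1, −0.021 to 0.055 for EXO1, −0.032 to 0.17 for FANCA, −0.19 to 0.031 for FANCM, −0.13 to 0.00098 for PALB2, −0.17 to 0.031 for RAD54L and −0.061 to 0.086 for XRCC3. RAD50, with at most 16 counts per library, had the widest interval of the 33.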
